A study of Mus musculus with 8 samples.

Results

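The immediate early genes, Fos, Fosb, Junb, Egr1, Egr2, Arc, Npas4, Nr4a1, Atf3 and Ier2, were followed over 8 retina arrays. A gene was taken as a member through the accession that the array design gives for its probe, which left 10 of 22911 named genes and 12 of 56605 probes. The rule names the genes and uses no signal from these arrays. The study asked how loss of multidrug resistance protein 4 (MRP4), an efflux transporter, affects the retina of old mice. Whole retinas came from wild-type (WT) mice and Mrp4 knockout (Mrp4-null) mice with a C57BL/6J background, aged 46–55 weeks by the sample labels, with 4 samples per genotype. Each sample was hybridized to a one-color Agilent array that reports 1 Cy3 intensity per spot. The knockout was not restricted to a cell type by any label, the methods mention 3 mice per harvest without saying whether a sample pooled them, and no label says that the samples came from separate animals, so a p-value here measures the spread between samples, part of which may be technical.

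Immediate early genes are transcribed within minutes of a stimulus, without new protein synthesis, through factors such as SRF and CREB that are already present in the cell. Their products are mostly transcription factors that switch on a later wave of genes, and their mRNAs are short-lived. In the retina they are known to respond to light, neuronal activity, injury and handling of the tissue, in neurons as well as in Müller glia. In whole-tissue RNA, fewer cells that express a gene and less mRNA per cell cannot be told apart.

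The 8 arrays lay on 1 slide and each genotype filled a row of its own, so that row and genotype cannot be told apart. Abcc4, the gene for MRP4, went against the labels. Its log2 normalized signal on arrays 1 to 4 read 10.84, 10.71, 10.64 and 10.80 under the Mrp4-null label and 6.62, 7.13, 6.54 and 7.02 in WT (log2 difference 3.92 ± 0.14 SE, limma adjusted p = 1.36e-05). Whether its probe lies within the deleted part of the gene is not given in the sources used here. All directions below follow the labels as deposited, and "null-labelled" stands for an array labelled Mrp4-null. The mean log2 signal of 8 rod markers, rhodopsin among them, was 16.0–16.2 on every array, which are genes of the retina. Signal well above background was found for 66.0–69.9% of probes per array, and the 75th percentile of the signal was 497–786. Across all retained probes, 202 of 37085 passed both thresholds of a call (0.545%), namely a 1.5-fold difference and a limma p under 0.05 after adjustment.

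The proximal promoters of 7 of the 10 members were matched by symbol in the RefSeq table of GRCm38.p6, namely Fos, Fosb, Junb, Egr2, Npas4, Nr4a1 and Atf3. Arc, Egr1 and Ier2 had no entry. The 250 bases before the start site are shown for Fos and Nr4a1, whose signals moved together over the arrays, and for Junb and Atf3, which were both highest on the third null-labelled array. They lie at chr12:85473640-85473889 (plus strand, Fos), chr15:101266596-101266845 (plus strand, Nr4a1), chr8:84978749-84978998 (minus strand, Junb) and chr1:191183334-191183583 (minus strand, Atf3). Capitals mark TGACG on either strand (read as CGTCA when on the other), the core of the cAMP response element (CRE) to which CREB and ATF proteins bind.
Fos: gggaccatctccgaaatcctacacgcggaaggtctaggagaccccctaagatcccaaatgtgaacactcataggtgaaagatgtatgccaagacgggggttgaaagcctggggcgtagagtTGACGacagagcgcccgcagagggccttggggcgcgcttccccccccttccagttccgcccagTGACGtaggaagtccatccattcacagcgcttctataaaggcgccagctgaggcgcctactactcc
Nr4a1: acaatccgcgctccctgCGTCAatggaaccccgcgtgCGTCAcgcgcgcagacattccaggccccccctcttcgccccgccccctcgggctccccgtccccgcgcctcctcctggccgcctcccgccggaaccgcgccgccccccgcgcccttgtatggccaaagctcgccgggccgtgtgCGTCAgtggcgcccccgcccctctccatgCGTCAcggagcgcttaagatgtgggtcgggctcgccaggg
Junb: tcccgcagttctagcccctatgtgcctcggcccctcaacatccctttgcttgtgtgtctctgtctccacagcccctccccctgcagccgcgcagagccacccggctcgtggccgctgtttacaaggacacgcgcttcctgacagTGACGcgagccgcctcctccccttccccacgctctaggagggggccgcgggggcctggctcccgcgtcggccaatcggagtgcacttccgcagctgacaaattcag
Atf3: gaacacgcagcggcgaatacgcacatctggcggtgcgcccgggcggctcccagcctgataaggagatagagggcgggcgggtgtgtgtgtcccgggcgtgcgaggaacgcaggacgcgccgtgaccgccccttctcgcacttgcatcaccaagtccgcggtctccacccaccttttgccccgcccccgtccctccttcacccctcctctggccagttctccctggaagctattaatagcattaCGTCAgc

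The TGACG core was present in the 250-base promoter of 7 of 7 members in the table, and in 17.8% of all 32851 promoters of that length. Egr2 has 5 entries, and it was counted when any of them held the letters. The full palindrome TGACGTCA, which contains the core, was found in none of the 7 and in 1.55% of all promoters. The AP-1 site TGANTCA was also found in none of them and in 6.75% of all promoters. The CArG box, to which SRF binds, was found in Egr2 alone (1.47% of all promoters), the EGR site GCGNGGGCG in Fosb and Nr4a1 (4.70%), and TATAAA in Fos alone (12.4%). All motifs were searched on both strands. A match describes the letters in this window only, and elements farther upstream were not searched.

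Fos, Fosb and Junb encode subunits of the AP-1 transcription factor. The log2 normalized signal of Fos was 10.18, 10.86, 10.72 and 11.004 on null-labelled arrays 1 to 4 and 11.13, 10.74, 10.52 and 10.74 on WT arrays 1 to 4. Its first null-labelled array was the lowest of all 8, the first WT array was the highest, and the genotypes overlapped. The difference between genotypes was -0.09 ± 0.20 (SE, n = 4 per genotype, limma adjusted p = 1.00). Fosb, the Fos relative that also gives the long-lived ΔFosB form, read 6.95, 6.75, 7.51 and 7.36 on the null-labelled arrays and 6.92, 7.28, 6.94 and 7.04 on the WT arrays. Its null-labelled arrays held both the lowest and the highest value, and the difference was 0.10 ± 0.17 (limma adjusted p = 1.00). A second Fosb probe was well above background on no array. Junb, a Jun protein that pairs with Fos proteins, read 12.04, 12.34, 12.83 and 12.24 on the null-labelled arrays and 11.99, 11.92, 11.88 and 11.92 on the WT arrays. All 4 null-labelled values lay above all 4 WT values, with the third null-labelled array far above the rest and the first only slightly above WT. The difference was 0.44 ± 0.16, or 1.35-fold, which did not pass the adjustment over all probes (limma adjusted p = 0.574, exact two-sided permutation p = 0.0286, the smallest that 4 against 4 arrays can give). Without the third null-labelled array it was 0.28 ± 0.10 (limma adjusted p = 0.718). A second, much dimmer Junb probe gave 4.22, 4.62, 5.79 and 4.68 against 4.71, 4.07, 3.96 and 4.90. Its highest array was again the third null-labelled one, but the genotypes overlapped and the difference of 0.42 ± 0.35 did not pass the test (limma adjusted p = 1.00).

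**Figure D1:**
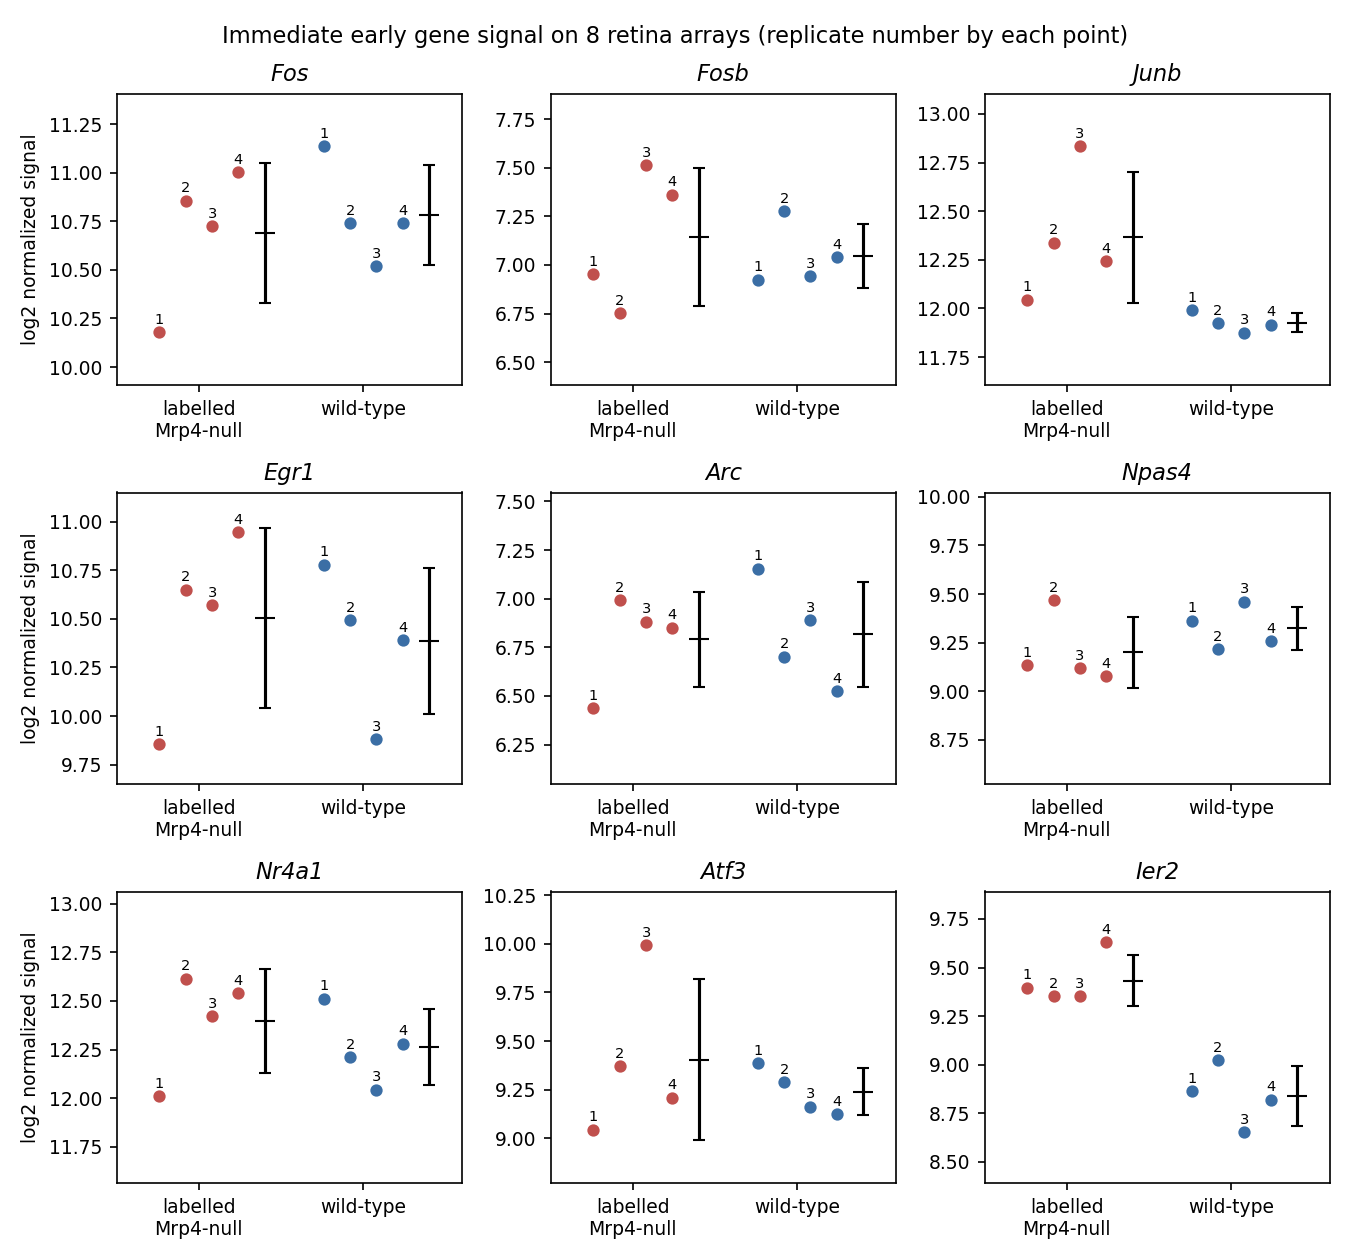
Log2 quantile-normalized signal (y axis) of the 9 members that were retained, on 4 arrays labelled Mrp4-null (red) and 4 WT arrays (blue), with the replicate number by each point and the mean ± SD in black; every panel spans the same log2 range, placed at its own level. Ier2 and Junb were the only genes of the 9 whose genotypes did not overlap, and the third null-labelled array stood apart for Junb (12.83) and Atf3 (9.99).

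Egr1 and Egr2 encode zinc finger transcription factors of the early growth response family. The log2 signal of Egr1 was 9.86, 10.65, 10.57 and 10.94 on the null-labelled arrays and 10.78, 10.49, 9.88 and 10.39 on the WT arrays. Low arrays occurred in both genotypes, the first null-labelled and the third WT array, and the difference of 0.12 ± 0.26 was smaller than the spread (limma adjusted p = 1.00). Egr1 had the widest spread of the 9 members, with a within-genotype SD of 0.42 that exceeded those of 91.2% of the retained probes. Egr2, known for its part in myelination and in lymphocytes and also induced by activity, was not retained, because it was well above background on only 2 null-labelled and 2 WT arrays. Its processed signal before normalization was 18.0, 10.1, 168.7 and 9.8 on the null-labelled arrays and 19.7, 20.9, 9.1 and 5.1 on the WT arrays. A single array, the third null-labelled one, carried a clear signal, 8.07-fold above the next highest, so the genotypes overlapped (log2 difference without the filter on dim probes 0.83 ± 0.90, limma adjusted p = 1.00).

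Arc and Npas4 are the members most closely tied to neuronal activity, Arc as a synaptic protein that promotes AMPA receptor removal and Npas4 as a transcription factor induced by calcium entry. The log2 signal of Arc was 6.44, 6.99, 6.88 and 6.85 on the null-labelled arrays and 7.15, 6.70, 6.89 and 6.53 on the WT arrays. The first null-labelled array was the lowest and the first WT array the highest, as for Fos, and the difference was -0.03 ± 0.16 (limma adjusted p = 1.00). Npas4 read 9.13, 9.47, 9.12 and 9.08 against 9.36, 9.22, 9.46 and 9.26. The second null-labelled and the third WT array, which also had the 2 lowest 75th percentiles of raw signal, were the highest for this gene. The difference was -0.12 ± 0.11 (limma adjusted p = 1.00). Over the 8 arrays the level of Npas4 correlated with that percentile at r = -0.81 (exact permutation p = 0.0250, adjusted p = 0.225 over 9 members; Spearman rho -0.76, exact p = 0.0368), and at r = -0.40 without those 2 arrays. The part of array brightness in the Npas4 values was not tested.

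Nr4a1 encodes an orphan nuclear receptor, Atf3 a stress-induced CREB family repressor, and Ier2 a small nuclear protein induced by serum and growth factors. The log2 signal of Nr4a1 was 12.01, 12.61, 12.42 and 12.54 on the null-labelled arrays and 12.51, 12.21, 12.04 and 12.28 on the WT arrays. Its lowest arrays were the first null-labelled and the third WT array, the same 2 as for Egr1, and the difference was 0.13 ± 0.15 (limma adjusted p = 1.00). Atf3 read 9.04, 9.37, 9.99 and 9.21 against 9.39, 9.29, 9.16 and 9.12. Apart from the third null-labelled array, the genotypes covered overlapping ranges, and the difference fell from 0.16 ± 0.19 to -0.03 ± 0.11 without that array (limma adjusted p = 1.00 in both). Ier2 read 9.40, 9.35, 9.35 and 9.63 on the null-labelled arrays and 8.86, 9.02, 8.65 and 8.82 on the WT arrays. This was the clearest separation among the members, with every null-labelled array above every WT array and a gap between them larger than the SD within either genotype (0.13 and 0.15). The difference of 0.59 ± 0.11, or 1.51-fold (95% interval 0.35 to 0.83), had an unadjusted limma p of 0.000393 and missed the threshold after adjustment over all probes (limma adjusted p = 0.0597). It passed under 1 alternative, an intensity trend with robust variances (limma adjusted p = 0.0435). Leaving out single arrays left it at 0.52 to 0.65 with adjusted p of 0.0844 to 0.224.

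Of the 9 retained members, 0 were called changed by limma, beside 0.545% of all retained probes, and the local pooled error test named in the study's methods also called 0, beside 0.647% of all probes. At an unadjusted p under 0.05 there were 2 (Ier2 and Junb), beside 6.46% of all probes. The genotypes did not overlap for 2 members, both higher on the null-labelled arrays, beside 4.79% of all probes in either direction and 2.44% in that one. On average 6 of 9 were higher under the null label, beside 46.8% of all probes, and the median difference was 0.12, beside -0.01. Within genotypes the members varied somewhat more than other probes, with a median SD of 0.26 against 0.19. The median SD of the members was 0.34 on the null-labelled arrays and 0.16 on the WT arrays, and no such value per genotype is given for all probes. Over all named genes, the second null-labelled array held the most genes more than 1 log2 unit low (316). The third held the most that were high by as much (239). Whether the contrast in spread is particular to the members was not tested.

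**Figure D2:**
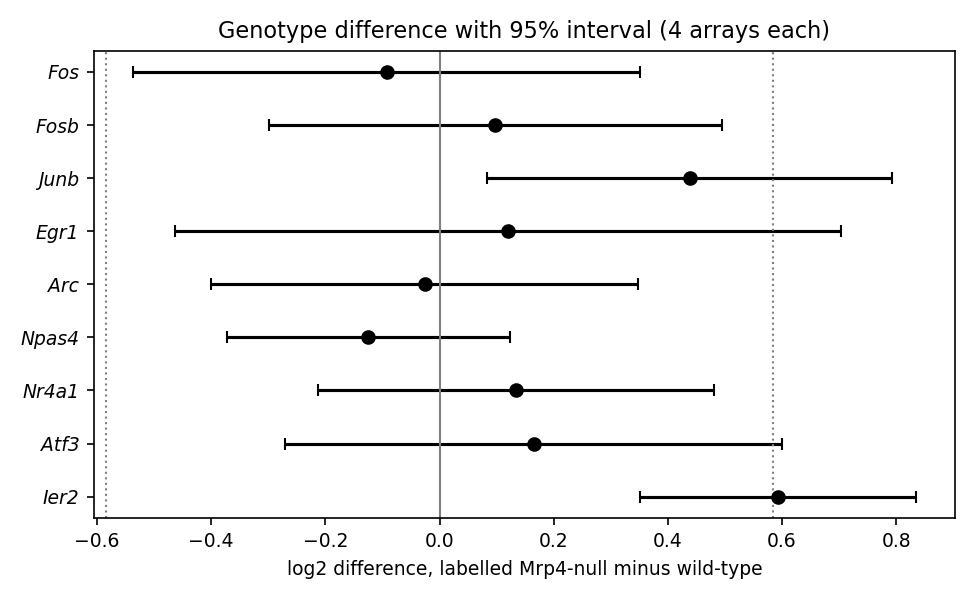
Log2 difference between arrays labelled Mrp4-null and WT arrays (x axis) for the 9 retained members (y axis), with points for the limma estimate, bars for its 95% interval (4 arrays per genotype) and dotted lines at a fold change of 1.5. The intervals of Ier2 (0.35 to 0.83) and Junb (0.08 to 0.79) lay above 0, and the other 7 covered it.

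Ier2 and Junb are both on chromosome 8 (GRCm38.p6), with 18 tested genes between them. In the stretch from 10 genes before Ier2 to 10 after Junb, chosen after the values of both were seen, 17 of the 38 other tested genes did not overlap between genotypes (44.7%, beside 4.79% of all probes), 10 higher and 7 lower on the null-labelled arrays. Limma called 5 of them, Rnaseh2a, Tnpo2 and Gm5741 higher and Podnl1 and Gadd45gip1 lower. The members' own differences thus stood among neighbours that differed in both directions, and the part of their position in those differences was not tested.

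Fos, Egr1 and Nr4a1 rose and fell together from array to array, across arrays of both genotypes. Fos and Egr1 correlated at r = 0.91 over the 8 arrays (exact permutation p = 0.00122, adjusted p = 0.0268 over 36 pairs of members; Spearman rho 0.90, exact p = 0.00456, adjusted p = 0.0821). Both ran from lowest on the first null-labelled array and the third WT array to highest on the fourth null-labelled and first WT arrays. Egr1 and Nr4a1 correlated at r = 0.92 (exact permutation p = 0.00149, adjusted p = 0.0268; rho 0.90, exact p = 0.00456, adjusted p = 0.0821). Fos and Nr4a1 correlated at r = 0.85 (exact permutation p = 0.00370, adjusted p = 0.0443; rho 0.81, exact p = 0.0218, adjusted p = 0.196). These were the pairs below an adjusted p of 0.05 by Pearson's r, 3 of 36, and by Spearman's rho there were 0, with 5 at an unadjusted p under 0.05.

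**Figure D3:**
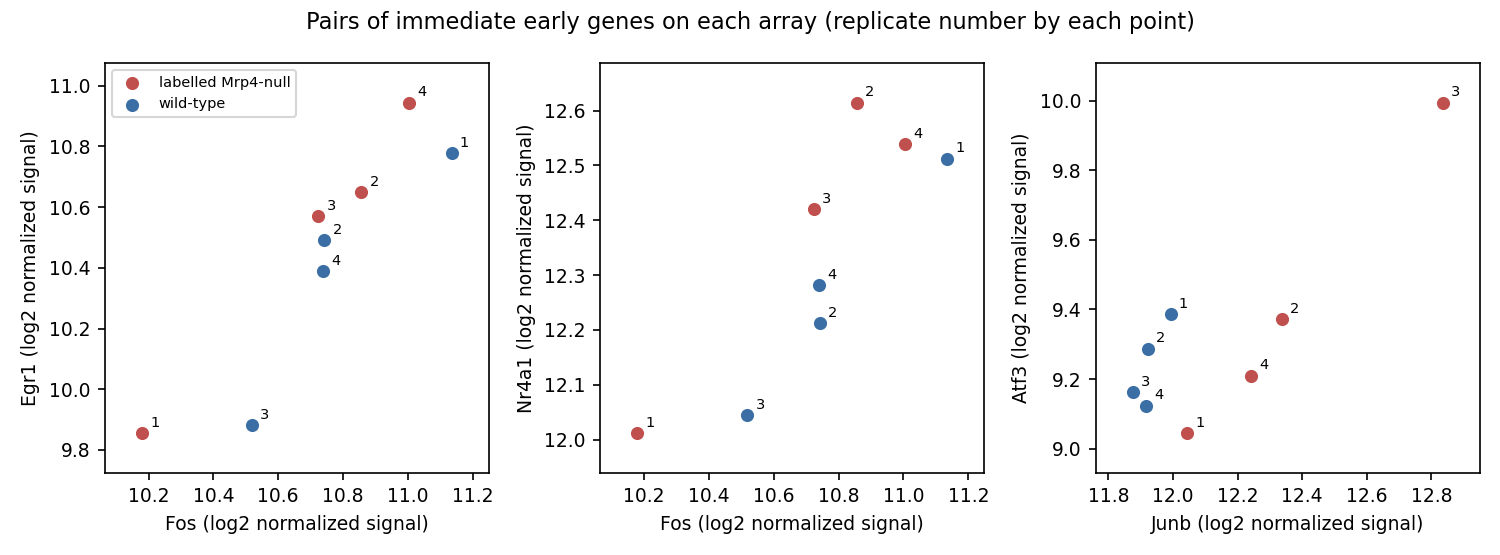
Log2 normalized signal of Egr1 against Fos, Nr4a1 against Fos and Atf3 against Junb, 1 point per array, null-labelled in red and WT in blue with the replicate number. In the first 2 panels the signals rise together in both genotypes (r = 0.91 and 0.85), with the null-labelled points above the WT points at a like Fos signal, and in the third panel r was 0.86, or 0.35 without the third null-labelled array at the top right.

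The relation of the trio did not rest on the extreme arrays alone. Without the 2 arrays farthest from the median of the first gene, r was 0.96 for Fos and Egr1, 0.86 for Fos and Nr4a1 (both without the first null-labelled and first WT arrays) and 0.74 for Egr1 and Nr4a1 (without the first null-labelled and the third WT array). With genotype means removed it was 0.97, 0.97 and 0.93. Among 16087 other named genes, Egr1 ranked 4th and Nr4a1 16th by r with Fos, and Egr1 ranked 3rd by r with Nr4a1. The genes ranked above Egr1 for Fos, namely Hax1, 4833420G17Rik and Ccdc149, had SDs over the arrays of 0.06 to 0.07, against 0.29 for Fos and 0.39 for Egr1. Some genes that varied more than Nr4a1 (SD 0.23) also ranked above the trio. Ly75 (SD 0.26) followed Nr4a1 at r = 0.94, above Egr1, and 4931420L22Rik (SD 0.27) followed Egr1 at r = 0.95, above Nr4a1 and Fos. Arc tended the same way (r = 0.73 with Fos, exact permutation p = 0.0357, adjusted p = 0.214), but r was 0.11 without the first null-labelled and first WT arrays. Over all 36 pairs, r was above 0 in 29 with a median of 0.37, whereas the median r of members with all other genes was -0.02. The most negative pair was Fosb and Npas4 (r = -0.78, exact permutation p = 0.0292, adjusted p = 0.210; rho -0.88, adjusted p = 0.0869). No r is given within a genotype (4 arrays) or a column of the slide (2 arrays), since r was used only over 6 or more arrays.

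**Figure D4:**
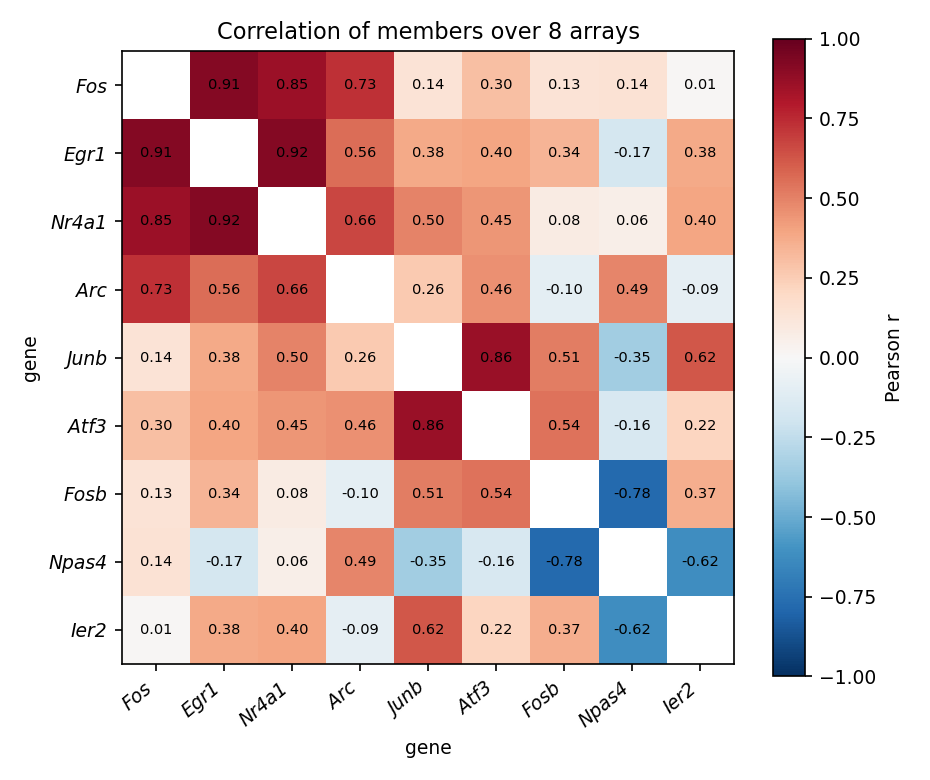
Pearson r over 8 arrays for every pair of the 9 retained members, from blue (-1) to red (1). Fos, Egr1 and Nr4a1 form 1 block (0.85 to 0.92) and Junb with Atf3 a second pair (0.86), while Npas4 ran against Fosb (-0.78).

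The first null-labelled array was the lowest of the 8 for Fos, Egr1, Arc, Nr4a1 and Atf3. It lay 0.56, 0.72, 0.44, 0.41 and 0.24 below the median of the other arrays on the log2 scale. There, 1.27%, 0.603%, 2.34%, 2.90% and 8.19% of named genes were as low as these members. Ier2 and Junb were not low on it, at 0.37 and 0.05 above the median of the others. Egr4, a relative of Egr1 outside the 10 members, was also lowest there (log2 6.63, against 7.17 to 7.86 on the other arrays) and followed Fos with r = 0.87. The relatives of the members did not all do so, since over the 8 arrays r with Fos was 0.52 for Egr3, 0.41 for Nr4a2, 0.17 for Nab2 and -0.64 for Nr4a3, whose signal on this array lay 0.14 above the median of the others. Egr3 and Nab2 lay 0.55 and 0.65 below it there, and Nr4a2 0.03 below. Egr3 and Nab2 were slightly lower still on the third null-labelled array (5.69 against 5.73, and 10.41 against 10.43). The mean of these 5 genes was lowest on the first null-labelled array (7.65 against 7.72 to 8.15). That of the AP-1 and Maf partners was lowest there too (9.40 against 9.47 to 9.67). This mean, however, was lower on every null-labelled array (9.40 to 9.50) than on any WT array (9.55 to 9.67). Among the cell type lists, the bipolar cell markers were highest on the first null-labelled array (13.63 against 13.26 to 13.59), and the other lists lay within the range of the other arrays. The mean of 11 lens markers was 6.70 there and 6.31 on the second null-labelled array, below all others, and it ran from 6.31 to 8.88 over the null-labelled and from 7.68 to 10.11 over the WT arrays. Of these markers 0 of 11 were higher on average under the null label, with a median difference of -1.40, 2 at an unadjusted limma p under 0.05 and 0 called. The part of lens tissue in the values of the members was not tested.

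On the third null-labelled array, Junb, Atf3 and Fosb were at their highest. Junb was 0.84, Atf3 0.78 and Fosb 0.56 above the median of the other arrays, and 1.87%, 2.07% and 3.41% of named genes were as high. Fos (-0.02) and Egr1 (0.08) were close to the other arrays. Junb and Atf3 correlated at r = 0.86 (exact permutation p = 0.0269, adjusted p = 0.210; rho 0.55, exact p = 0.171, adjusted p = 0.410). Without this array r was 0.35, and without it and the second null-labelled array it was -0.02. With genotype means removed, which takes out the offset of Junb between genotypes, r was 0.98 over the 8 arrays and 0.88 over the 7 without the third null-labelled array, the last a setting chosen after the data were seen.

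**Figure D5:**
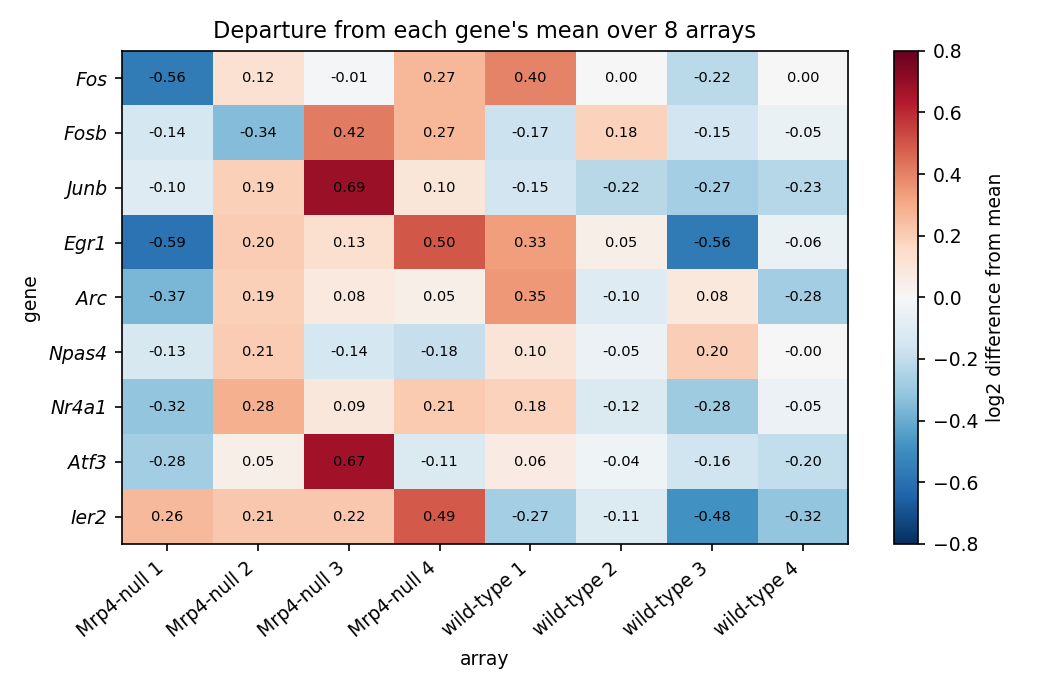
Departure of each retained member (rows) on each array (columns) from its own mean over the 8 arrays, in log2 units, red above and blue below. The first null-labelled array was the lowest for Fos, Egr1, Arc, Nr4a1 and Atf3, the third was high for Junb, Atf3 and Fosb, and Ier2 was above its mean on all 4 null-labelled arrays and below it on all 4 WT arrays.

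On the same array, genes of reactive glia and microglia were high as well. Among other early response genes, highest there were 0 of 5 AP-1 and Maf partners (median departure -0.00145 from the other arrays), 0 of 5 further Egr and Nr4a genes and Egr corepressors (-0.57) and 7 of 37 further early response genes (-0.05). Of the 37, Socs3, Cebpd and Gadd45b lay more than 1 log2 unit above the other arrays, and the mean of the list was highest there (10.001 against 9.76 to 9.97), as was that of the 26 regulators of early gene transcription (10.93 against 10.85 to 10.92). All 9 genes of a reactive glia list were at their highest there, beside 12.8% of all named genes, with a median departure of 1.89 from the other arrays, beside -0.01. Lcn2, a lipocalin of reactive astrocytes and Müller glia, was at 13.24 there and at 8.20 to 8.63 on the other 7 arrays. Serpina3n, a protease inhibitor, was at 9.47 against 4.42 to 5.50, and Edn2, an endothelin that stressed photoreceptors make, at 12.09 against 7.86 to 8.999. Gfap, the intermediate filament of astrocytes and reactive Müller cells, was at 9.05 against 7.07 to 7.63. Socs3, the feedback inhibitor of STAT3, which is on both the reactive glia and the early response list, was at 11.14 against 8.49 to 9.03. The 8 myeloid markers were all highest there too, with a mean log2 signal of 9.90 against 8.69 to 8.96, and Aif1 and C1qa, markers of microglia, were at 8.84 and 8.83 there and at 7.48 to 7.92 and 7.49 to 7.68 on the other arrays. The means of 6 Müller glia markers (12.5 to 12.8 over all arrays) and of the rod markers on that array lay within the range of the others. The cone markers were lowest there (14.46 against 14.57 to 14.67), and the blood markers (11.89 against 10.92 to 11.86) and the fibroblast and mural markers (8.35 against 8.12 to 8.32) were highest. Over the 8 arrays Atf3 followed Gadd45b at r = 0.99, Gfap at 0.96 and Cebpd at 0.96, as a description of genes named after their values were seen. Without the third null-labelled array these were 0.92, 0.74 and 0.77. Fos followed Gfap at 0.13 over all 8 arrays and at 0.53 without that one. The part of these other cell type markers in the values of Junb, Atf3 and Fosb was not tested. With the third array left out, 8 of the 9 reactive glia genes were still higher on average under the null label, and the median difference was 0.20, against 0.73 with all arrays. These differences ran from -0.12 ± 0.12 for Lcn2 to 0.48 ± 0.26 for Edn2, with 0 called and 0 at an unadjusted limma p under 0.05.

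The mean profile of the 9 members, each centred on its own mean, was compared with 691 other named genes whose SD over the arrays was at least 0.5. That cutoff lay above the SD of every member (0.15 for Npas4 to 0.39 for Egr1), so genes that varied as little as the members were left out. The most alike by Pearson r over 8 arrays were Olfr45 (0.75), Fgf2 (0.73), Gm32705 (0.73), Uhrf1 (0.72), Ncf1 (0.71), Gpnmb (0.70), Tmem220 (0.70), AW112010 (0.69), Tal2 (0.68) and Cxcl10 (0.68). Of these, Fgf2, Gm32705, Uhrf1, Ncf1, Gpnmb, Tmem220, AW112010 and Cxcl10 were highest on the third null-labelled array. Olfr45 (log2 2.52 to 4.93 over the arrays) and Gm32705 (3.23 to 4.91) were dim. The dimmer Junb probe, at 3.96 on the third WT array, was not well above background there. The least alike were Gm19391 (-0.85), Ccdc60 (-0.68), Vmn2r10 (-0.68), Dnajc5b (-0.67) and A730004F24Rik (-0.65). Set against the mean of the other 8 members, r was highest for Nr4a1 (0.85) and Egr1 (0.79) and lowest for Npas4 (-0.28).

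Other genes of the same response were read from 6 lists with 96 retained genes, of which limma called 0, beside 0.545% of all probes. At an unadjusted p under 0.05 there were 9 (9.38%, beside 6.46% of all probes), and 10 did not overlap between genotypes (10.4%, beside 4.79%). Of 5 retained AP-1 and Maf partners, 1 had an unadjusted p under 0.05, with a median difference of -0.09. Maff, a small Maf protein, was at -0.54 ± 0.20, Fosl2 at -0.35 ± 0.18 and Jun itself at 0.24 ± 0.23. Of 5 further Egr and Nr4a genes and Egr corepressors, 1 had an unadjusted p under 0.05, with a median of -0.26. That gene was Nab2, which binds EGR proteins and represses their activity, at 10.43, 10.84, 10.41 and 10.50 on the null-labelled arrays and 11.08, 11.14, 11.36 and 11.10 on the WT arrays. All its null-labelled arrays lay below all WT arrays, and the difference of -0.62 ± 0.12 missed the threshold (limma adjusted p = 0.0806). Egr3 was at -0.43 ± 0.22 and Egr4 at -0.26 ± 0.26.

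Of 37 further early response genes, 3 had an unadjusted p under 0.05 (Zfp36, Trib1 and Plk2), and the median was -0.01. The differences of largest size were Socs3 at 0.77 ± 0.49, Cebpd at 0.44 ± 0.38 and Sik1 at -0.37 ± 0.26. Without the third null-labelled array Socs3 was at 0.20 ± 0.14, Cebpd at 0.00 ± 0.13 and Sik1 at -0.16 ± 0.23. Of 11 late activity-regulated neuronal genes, 2 had an unadjusted p under 0.05, with a median of -0.03. Bdnf, a neurotrophin, was at -0.41 ± 0.15 (limma adjusted p = 0.601), Pcsk1, a prohormone convertase, at -0.35 ± 0.12 (0.536) and Vgf, a neuropeptide precursor, at 0.16 ± 0.07 (0.796). Of 26 upstream regulators of early gene transcription, 1 had an unadjusted p under 0.05, the kinase gene Rps6ka1 at 0.40 ± 0.11 (limma adjusted p = 0.349). The median over these regulators was -0.01, with Crebbp at 0.22 ± 0.16 and Mef2d at -0.15 ± 0.10. Of 12 heat shock genes, 1 had an unadjusted p under 0.05, Hspa1a at -0.36 ± 0.09 (limma adjusted p = 0.232), and Hsph1 and Hspb1 were at 0.22 ± 0.11 and 0.19 ± 0.10.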

How the data were processed

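The authors deposited the scanner output of 8 one-color arrays and 1 table of the series. Per the file headers, each spot has a processed signal intensity, which Agilent Feature Extraction 11.0.1.1 (version from the submitters' processing notes) had background-subtracted and not normalized between arrays, and other columns hold flags per spot (1 or 0) deposited by the authors. The deposited table held the mean processed intensity per probe. All value columns were mapped to samples by their labels.

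The log2 processed intensity was averaged per probe without control spots and outlier spots (78–143 per array). Of 56605 probes, 37085 were retained, because all measured arrays of 1 or both genotypes gave a signal well above background, and were quantile-normalized. Accessions matched the RefSeq gene table (GRCm38.p6) for 32994 probes (58.3%). Its build differs from that of the array design, so the only coordinates given are those of the promoter table. The probe with the highest mean signal represented a gene. The arrays held 300 probes spotted 10 times, whose median CV was 2.20–2.77% per array, and the number of arrays limits the precision.

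Genotypes were compared with limma 3.58.1 in R 4.3.3 (lmFit and eBayes, genotype as the only term, Benjamini-Hochberg adjustment over all retained probes), and a call needed a 1.5-fold difference with an adjusted p under 0.05. Limma replaced the local pooled error test of the study's methods, which was written for this work and used as an alternative. Exact two-sided permutation tests ran over 70 groupings of the arrays or 40320 pairings for correlations. Both tests were tried on simulated data in which 200 of 37075 probes differed by 2 log2 units. Limma recovered 97% of these and made 10 false calls. The local pooled error test recovered 100% and made 180. The planted change was larger than the difference of any retained member (at most 0.59, for Ier2). Recovery of changes as small as those of the members was not tested.

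The text names all members, Abcc4, the 3 genes of each related list with the largest difference, list genes that passed a threshold, and the 10 most and 5 least similar genes to the members' mean profile. Genes named on the first or the third null-labelled array, on chromosome 8 and among the nearest genes to single members were chosen after their values were seen. The members and lists were chosen with earlier results of these data known. Alternatives for normalization were cyclic loess and a shift to the 75th percentile, and for the input normexp background correction (offset 50), the deposited table and outlier spots kept. Further ones were no filter or a stricter filter on dim probes, the local pooled error test, robust variances with an intensity trend, a block for the sample number, single arrays left out, the 2 arrays of lowest signal left out, other probes of a gene, and genotype means removed before a correlation.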

Additional observations from a re-analysis of the deposited data

Results flagged for a closer look

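Members and marker lists were screened for an array that stood apart within its genotype. Of 54 groups of 4 arrays, 6 held a highest or lowest array whose gap to its neighbour took up more of the group's range than the 95% limit of Dixon's test allows. Chance gives about 1 in 20 such groups. Among the members, Npas4 was set apart by its second null-labelled array (9.47 against 9.08 to 9.13, gap 0.854 of the range) and Ier2 by the fourth (9.63 against 9.35 to 9.40, 0.837 of the range). In Ier2 the outlying array lay farther from WT than the others did. The mean of the reactive glia list was set apart by the third null-labelled array (11.09 against 8.78 to 8.81, gap 0.984), the array on which Junb, Atf3, Fosb and Egr2 were highest. The other 3 were the pigment epithelium markers among null-labelled arrays (gap 0.853), and the rod markers (0.868) and blood markers (0.888) among WT arrays. The pigment epithelium markers were low on the third null-labelled array (7.53 against 7.84 to 7.90). The first WT array, where Fos and Arc were highest, was high for the rod markers (16.19 against 16.01 to 16.03) and the blood markers (11.86 against 10.92 to 11.03).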

How the results depend on the processing

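The number of arrays limits these results, and depth does not apply. Limma called 0 members under every alternative except an intensity trend with robust variances, which called 1 (Ier2). Over the alternatives Ier2 stayed between 0.52 and 0.65 (adjusted p 0.0435 to 0.891) and Junb between 0.28 and 0.55 (adjusted p 0.446 to 1.00). Differences that had not passed the test changed sign for Arc under the shift to the 75th percentile (0.00247), for Fos (0.0497) and Arc (0.0717) under the local pooled error test, and for Egr1 (-0.0962) and Nr4a1 (-0.0119) without the 2 arrays of lowest signal. Leaving out single arrays gave ranges of -0.197 to 0.0776 for Fos, -0.123 to 0.0913 for Arc, -0.0250 to 0.230 for Fosb, -0.0317 to 0.284 for Atf3 and -0.0480 to 0.336 for Egr1. The cause was not tested. The r of Fos and Egr1 stayed at 0.88 to 0.95, of Fos and Nr4a1 at 0.80 to 0.91 and of Egr1 and Nr4a1 at 0.88 to 0.96 when single arrays were left out. The r of Junb and Atf3 was 0.35 to 0.90, lowest without the third null-labelled array. The median r over pairs stayed at 0.30 to 0.43.

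Across all probes, calls were 202 (95 higher, 107 lower), and 117 to 183 (59 to 86 higher, 58 to 97 lower) with single arrays left out, lowest without WT array 4. Without the 2 arrays of lowest signal they were 124 (55 higher, 69 lower). With the sample number as a replicate block they were 71 (30 higher, 41 lower), with 0 members called and Ier2 at an adjusted p of 0.340. Deviations of same-numbered arrays correlated at -0.29, -0.69, 0.03 and 0.41, and those of differently numbered arrays at -0.57 to 0.71. These values cannot show whether the samples were paired by number.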
